A study of Mus musculus with 12 samples.

Results

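The genes described here encode the proteins of the cytosolic ribosome. They were taken from the deposited count table by name, as Rpl or Rps followed by a number and at most 1 of the letters a, l or x, together with Rplp0, Rplp1, Rplp2 and Rpsa. The rule found 83 of 56860 genes, 51 of the large (60S) and 32 of the small (40S) subunit, and left out rows named as pseudogenes. RNA came from 12 primary mammary tumours of mice with the MMTV-PyMT transgene, in which polyoma middle T is expressed as an oncogene from the mouse mammary tumour virus promoter, collected at 4.5 months. There were 4 tumours for each of 3 genotypes. Per the design text WT tumours carried MMTV-Cre and MMTV-PyMT, although their strain label names MMTV-PyMT alone. S1pr1_KO tumours carried in addition the floxed allele S1pr1fl/fl, and C3_KO tumours carried in addition the allele C3Tdt. By that text all 3 groups share the oncogene and Cre. Because the MMTV promoter is active mainly in epithelium, other cells of a tumour can keep S1pr1 or C3. Whether each tumour is from its own mouse is not labelled, so the p-values measure the spread between these samples, which may be technical.

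Each ribosome carries a single copy of most of these proteins, and cells keep their mRNAs at matched levels and translate them together. In mammals the mRNAs of ribosomal proteins begin with a run of pyrimidines, the 5′ terminal oligopyrimidine (TOP) motif, through which mTORC1 controls their translation. A few members have copies with restricted expression, such as Rpl3l in striated muscle and Rpl10l and Rpl39l in male germ cells, and several members, among them Rpl5, Rpl11, Rpl23 and Rpl26, also take part in the control of p53.

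Promoter windows are shown first for members to which the results return. RefSeq promoters of build GRCm38.p6 matched 61 of the 83 members by symbol. The windows run from 60 bases before the annotated start to 20 bases from it onward, on the coding strand, and capitals mark a TOP motif, searched on that strand as C followed by at least 4 of C or T that begins within 5 bases of the annotated start. The first 3 belong to members whose share of the ribosomal protein counts was higher in 1 library of each genotype, the next 3 to members whose share was lower in the same libraries, then come Rpl34, whose share differed between genotypes, and the muscle copy Rpl3l.
Rpl28: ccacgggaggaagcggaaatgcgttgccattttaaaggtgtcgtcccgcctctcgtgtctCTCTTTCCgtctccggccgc
Rplp2: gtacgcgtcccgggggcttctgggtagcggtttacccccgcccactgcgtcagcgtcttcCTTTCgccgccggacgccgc
Rpl14: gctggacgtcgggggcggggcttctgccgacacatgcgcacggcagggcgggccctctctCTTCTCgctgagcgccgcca
Rps24: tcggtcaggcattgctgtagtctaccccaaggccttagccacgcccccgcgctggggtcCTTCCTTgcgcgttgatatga
Rpl4: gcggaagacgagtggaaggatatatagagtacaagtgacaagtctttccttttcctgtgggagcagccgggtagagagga
Rpl5: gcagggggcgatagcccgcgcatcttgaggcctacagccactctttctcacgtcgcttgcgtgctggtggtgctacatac
Rpl34: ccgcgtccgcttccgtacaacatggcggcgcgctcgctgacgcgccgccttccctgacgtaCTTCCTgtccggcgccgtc
Rpl3l: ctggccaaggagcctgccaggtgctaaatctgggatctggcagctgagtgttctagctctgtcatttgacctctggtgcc
These windows lie at chr7:4792905-4792984 (plus strand) for Rpl28, chr7:141447591-141447670 (plus) for Rplp2, chr9:120571457-120571536 (plus) for Rpl14, chr14:24490618-24490697 (plus) for Rps24, chr9:64173327-64173406 (plus) for Rpl4, chr5:107900468-107900547 (plus) for Rpl5, chr3:130730379-130730458 (minus) for Rpl34 and chr17:24727766-24727845 (plus) for Rpl3l. Each spans the annotated transcription start.

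A TOP motif stood in 28 of the 61 member promoters, or 45.9%, against 18.5% of all 27025 promoters of the table. In the 300-base promoters, from 250 bases before the start to 50 after it, 4 further motifs were searched on both strands, with no removal of overlaps between motifs. The ETS-family motif CCGGAAG occurred in 24 member promoters, or 39.3%, against 9.12% of all. The Sp1 motif GGGCGG occurred in 57.4% against 35.9%, the YY1 motif AAGATGGC in 6.56% against 2.88%, and TATAAA in 9.84% against 14.2%. The 28 tested members with a TOP motif had a median log2 fold change of -0.61 in C3_KO against WT and -0.81 in S1pr1_KO against WT, and the 32 tested members without one had -0.58 and -0.86. Members with and without these letters at the annotated start thus had similar medians, and a match describes the sequence alone.

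Total counts per library ran from 230.4 M to 484.0 M, so counting error is small for all but the rarest members. Epithelial markers were present in every tumour, with the luminal keratin Krt8 between 526 and 2117 CPM (counts scaled to a common library size with edgeR's TMM factors). Milk transcripts took 8.79% of the counts of C3_KO replicate 3 and salivary transcripts 16.7% of those of S1pr1_KO replicate 1, while S1pr1_KO replicate 4 had 0.656% salivary transcripts. The targeted genes gave little check of the labels: C3 spanned 41.6 to 75.1 CPM among C3_KO and 43.3 to 182 CPM among WT tumours, and S1pr1 spanned 2.59 to 7.43 CPM among S1pr1_KO and 2.88 to 8.02 CPM among WT tumours, both overlapping. For each library, the log2 CPM of a gene minus its mean over the 12 libraries was correlated with the GC content of its transcript. Across 10398 genes the correlations were 0.52, 0.48 and 0.61 in 3 libraries, WT replicate 1, C3_KO replicate 2 and S1pr1_KO replicate 3. They were -0.37 to 0.13 in the other 9. Their sign is relative to the mean of the 12 libraries and is not absolute. Both this difference and the GC content are properties of genes, which are not independent replicates.

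Most members were among the abundant mRNAs of every tumour. Levels of different genes were compared only per length, in the authors' FPKM (counts scaled by the deposited gene length and the library total), and 74 of 83 members had a mean over the 12 tumours above 100 FPKM. The highest mean was that of Rplp1, a protein of the acidic stalk that binds elongation factors, at 2729 FPKM with a range of 1449 to 4126. Rpl36 followed with 1675 FPKM, Rps15 with 1668, Rpl19 with 1196 and Rpl13a with 1043. These orders among neighbours are not firm, since the range of Rpl36 over tumours, 735.4 to 3178 FPKM, covers the means of the next 3. The order also depends on the deposited gene length. For Rplp1 (499 bases) and Rpl36 (383 bases) that length equals the length of the matched transcript. For Rps24 it is 6256 bases against a transcript of 468 bases, which lowers its FPKM. At the other end stood 5 members with means under 10 FPKM, Rpl32l, Rps4l, Rpl3l, Rpl39l and Rpl10l, all of them named with a final l as copies of another ribosomal protein gene.

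The members took a larger share of all counts in WT tumours than in most knockout tumours. Their summed share was 8.21, 7.25, 8.84 and 8.21% in WT replicates 1 to 4, 7.04, 6.80, 4.51 and 4.41% in C3_KO, and 3.94, 3.99, 8.07 and 3.97% in S1pr1_KO. Means were 8.13 ± 0.65% in WT, 5.69 ± 1.43% in C3_KO and 4.99 ± 2.05% in S1pr1_KO (SD, n = 4). All 4 C3_KO tumours lay below the lowest WT tumour, while S1pr1_KO replicate 3 lay inside the WT range and the other 3 S1pr1_KO tumours far below it. Without milk and salivary transcripts in the total, the share was 4.94% in C3_KO replicate 3 and 4.75% in S1pr1_KO replicate 1, still below all WT tumours. Both subunits moved together, and the summed 60S counts were 1.46 to 1.62 times the summed 40S counts in all 12 tumours. In bulk tumours, fewer cells of a kind rich in these mRNAs and less of the mRNA per cell cannot be told apart.

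A property of the libraries moved with this share. The same difference of each gene from its mean over all libraries was correlated with transcript length across the same 10398 genes. This correlation was positive, 0.12 to 0.51, in the 5 libraries with the lowest shares, C3_KO replicates 3 and 4 and S1pr1_KO replicates 1, 2 and 4. It was negative, -0.41 to -0.12, in the other 7, which include all WT tumours. The 4 smallest totals, 230.4 M to 284.1 M, were among those 5 libraries. After thinning every library to the smallest total, the members' median log2 fold change was -0.59 in C3_KO and -0.80 in S1pr1_KO against WT. Thinning keeps each gene's expected proportion of a library, so these medians could hardly move and say nothing on the part of depth. What the length skew contributes to the share was not tested beyond the values given below.

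**Figure D1:**
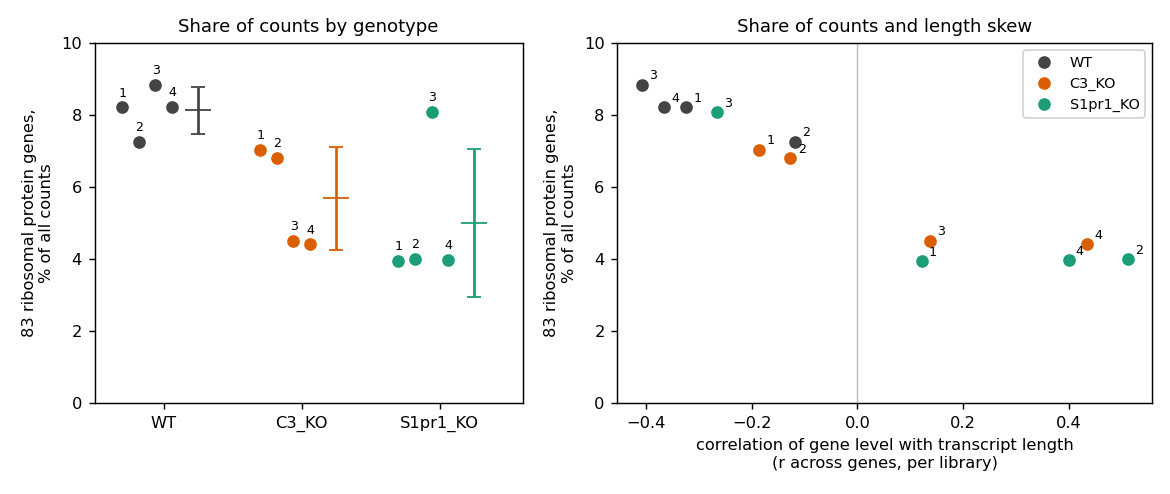
Left, the 83 ribosomal protein genes as percent of all counts in each tumour (points, numbered by replicate) with mean and SD of 4 tumours per genotype. Right, the same percentage against the correlation with transcript length, across genes, of log2 CPM in that library minus the gene's mean over all libraries. The 5 libraries with a positive correlation have shares of 3.94 to 4.51%, and the other 7 have 6.80 to 8.84%.

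Single members followed the sum. The number of members, of the 82 with enough counts to be tested, that lay below all 4 WT tumours was 57, 24, 77 and 80 in C3_KO replicates 1 to 4, and 76, 81, 23 and 79 in S1pr1_KO replicates 1 to 4. S1pr1_KO replicate 3 also had 18 members above all WT tumours, against at most 2 in any other knockout tumour. The share of all genes tested that lay outside the WT range in each tumour was not counted. These numbers therefore describe the members without a background, and the smaller ones cannot be set apart from it. The plot of members by tumour shows the low columns as nearly uniform, with few rows that depart from them.

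**Figure D2:**
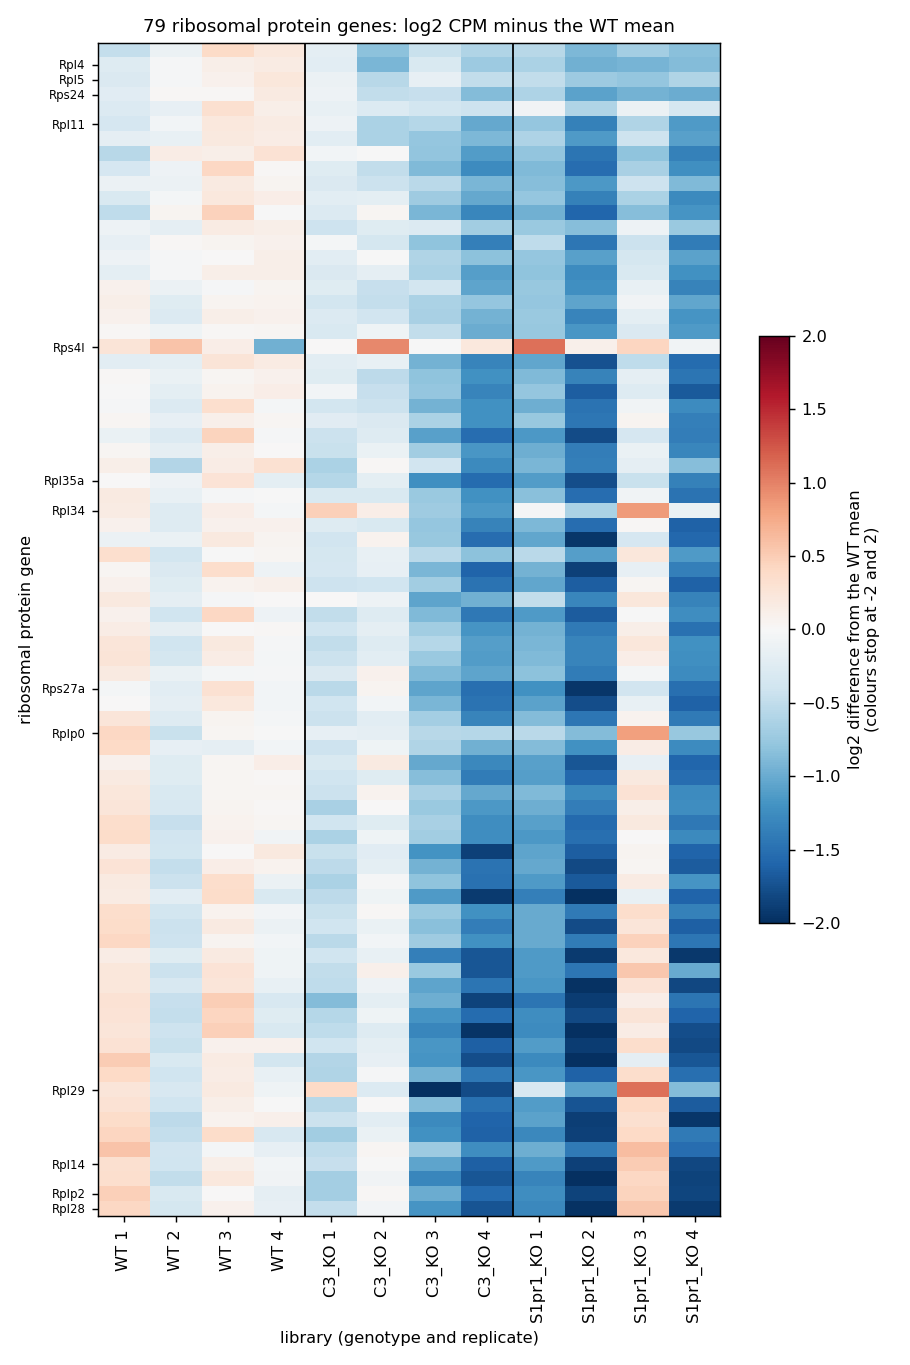
log2 CPM of 79 members (rows, some of them labelled; those whose 12 log2 CPM values had a mean of 1 or more) in each of 12 tumours (columns), minus the mean of the 4 WT tumours of that gene. C3_KO replicates 3 and 4 and S1pr1_KO replicates 1, 2 and 4 are below WT in nearly every row; Rpl29, Rpl34 and Rps4l stand out from the rows around them.

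In C3_KO against WT, 81 of 82 members were lower, with a median log2 fold change of -0.60 (a fold of 0.658) and a range of -0.92 to 0.25. Over all 30660 genes tested the median was 0.05 and 45.8% were lower. No member passed an adjusted p of 0.05 (edgeR, Benjamini-Hochberg), the lowest adjusted p of a member was 0.765, and no gene of the whole table passed (0%). At an unadjusted p under 0.05, 4 members were lower (4.88%) against 2.61% of all genes, and neither DESeq2 (0.16% of genes lower) nor limma-voom (0.013%) called a member. In 14 members (17.1%) every C3_KO tumour lay below every WT tumour, against 1.72% of all genes. The 60S and 40S medians were -0.61 and -0.59.

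The member with the smallest p was Rpl17, a 60S protein at the rim of the peptide exit tunnel. Values for WT were 937, 959, 1215 and 1176 CPM, and values for C3_KO 915.5, 689, 625 and 573 CPM. The groups did not overlap, though C3_KO replicate 1 came close to the lowest WT tumour, for a log2 fold change of -0.61 (SE 0.26, unadjusted p = 0.0319, edgeR adjusted p = 0.765). Rpl35a, a 60S protein whose human gene is mutated in some patients with Diamond-Blackfan anaemia, had 835, 778, 1010 and 729 CPM in WT against 562, 727, 357 and 287 CPM in C3_KO. Its groups were separated by a margin of only 729 to 727 CPM, for a log2 fold change of -0.79 (SE 0.34, edgeR adjusted p = 0.765). Rpl10a, part of the L1 stalk through which spent tRNA leaves, ranged over 860 to 1059 CPM among WT tumours but 497 to 768 CPM among C3_KO tumours, without overlap and with a log2 fold change of -0.53 (SE 0.24). Rpl23 and Rpl23a, with log2 fold changes of -0.70 and -0.71, and Rpl6l, with -0.55, did not pass either, at adjusted p of 0.765 each (edgeR).

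In S1pr1_KO against WT, a comparison that uses the same 4 WT tumours, 80 of 82 members were lower, with a median log2 fold change of -0.81 (a fold of 0.571) and a range of -1.17 to 0.36. Over all genes the median was 0.03 and 48.3% were lower. No member and no gene (0%) passed the adjusted p of 0.05, and the lowest adjusted p of a member was 0.205 (edgeR). At an unadjusted p under 0.05, 44 members were lower (53.7%) and none higher, against 7.78% of all genes lower. In 23 members (28%) all S1pr1_KO tumours lay below all WT tumours, against 4.8% of all genes. The 60S and 40S medians were -0.85 and -0.80.

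The call of this comparison depended on 1 library and on the test. Without S1pr1_KO replicate 3, 57 of 82 members (69.5%) were called lower by edgeR, against 2.7% of all genes, and the median was -1.21. Of 40 members named here by rule, 23 passed, with adjusted p of 0.0454 to 0.0491, while Rps24 (0.0591) and Rpl5 (0.127) did not pass (edgeR). In that set S1pr1_KO replicates 1, 2 and 4 had positive length correlations (0.12 to 0.51). Every WT tumour had a negative one (-0.41 to -0.12), so genotype and length skew could not be told apart there. With all libraries, DESeq2 called 9 members (11%) against 1.26% of genes, and limma-voom with sample quality weights, which can give less weight to a library that departs from its group, called 77 (93.9%) against 14.5% of genes. Without the 3 libraries of strongest GC skew, 1 of which is S1pr1_KO replicate 3, no member was called, against 0.0484% of all genes lower. The median was then -1.15. Another set left out C3_KO replicate 3 and S1pr1_KO replicates 1 and 4, which held most milk or saliva RNA. Its median was smaller in size, -0.51, with 78 members lower and no member or gene called. In that set S1pr1_KO consisted of replicates 2 and 3 alone.

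Among the 40S members, Rps24, needed for the maturation of 18S rRNA, had the smallest p. Its levels were 945, 1123, 1124 and 1250 CPM in WT and 720, 524, 573 and 556 CPM in S1pr1_KO. The highest S1pr1_KO tumour, replicate 1, stayed well below the lowest WT tumour. This gave a log2 fold change of -0.90 (SE 0.24, edgeR adjusted p = 0.205, DESeq2 adjusted p = 0.00417). Rps6, the 40S protein phosphorylated by S6 kinase downstream of mTORC1, spanned 1285 to 1600 CPM among WT tumours but 616 to 1197 CPM among S1pr1_KO tumours, with a log2 fold change of -0.85 (SE 0.29, edgeR adjusted p = 0.242). Rps27a, made as a fusion with ubiquitin, spanned 1251 to 1783 CPM (WT) and 377 to 1106 CPM (S1pr1_KO), with a log2 fold change of -1.16 (SE 0.39). Rpsa, the laminin receptor precursor of the 40S subunit, overlapped with WT through S1pr1_KO replicate 3 at 2513 CPM, while the other 3 tumours had 784 to 1188 CPM and WT had 2060 to 2609 CPM.

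Among the 60S members, Rpl5 and Rpl11 form with 5S rRNA the particle that can bind Mdm2. Rpl11 stood at 874, 1070, 1283 and 1245 CPM in WT and at 645, 433, 725 and 504 CPM in S1pr1_KO, and the groups did not overlap. This gave -0.95 on the log2 scale (SE 0.27, edgeR adjusted p = 0.22). Rpl5 stood at 835, 1002, 1075 and 1183 CPM in WT and at 718, 616, 594 and 668 CPM in S1pr1_KO, with a log2 fold change of -0.66 (SE 0.22, edgeR adjusted p = 0.241). For Rpl5, unlike for the summed members, S1pr1_KO replicate 3 was the lowest of its group. Rpl23 (-1.06, SE 0.29), Rpl26 (-1.16, SE 0.33) and Rpl36a (-1.10, SE 0.31) likewise did not overlap between the groups and did not pass, with adjusted p of 0.216, 0.22 and 0.216 on log2 fold changes from edgeR.

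The stalk proteins overlapped between S1pr1_KO and WT. Rplp0, the base of the stalk, had 2309, 1274, 1793 and 1721 CPM in WT and 1195, 947, 3067 and 1029 CPM in S1pr1_KO, so that replicate 3 was the highest of all 12 tumours and the other 3 were below every WT tumour. Its log2 fold change of -0.19 had an SE of 0.38 (edgeR adjusted p = 0.835). Rplp2 repeated this, with 728 to 1254 CPM among WT tumours, at most 381 CPM in S1pr1_KO replicates 1, 2 and 4, and 1229 CPM in replicate 3. Only Rps4l (0.36) and Rpl34 (0.11) had log2 fold changes above 0 in S1pr1_KO against WT, with adjusted p of 0.676 and 0.907 (edgeR), and that of Rpl34 was -0.20 without S1pr1_KO replicate 3.

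Between the knockouts the members differed less. In S1pr1_KO against C3_KO, 73 of 82 members were lower with a median log2 fold change of -0.19, beside -0.03 and 53.8% lower over all genes. No member had an unadjusted p under 0.05, against 1.63% of all genes lower, no member's groups were apart, against 0.838% of all genes, and no member or gene passed the adjusted p (0%). DESeq2 also called no member, against 0.179% of all genes lower. The smallest p was that of Rpl36a, with 224 to 483 CPM among C3_KO tumours, 176 to 283 CPM among S1pr1_KO tumours and a log2 fold change of -0.65. Other members of small p were Rps24 (-0.44), Rpl26 (-0.60), Rpl22 and Rpl31. Leaving out the 3 libraries with most milk or saliva RNA (C3_KO replicate 3, S1pr1_KO replicates 1 and 4) gave a median of 0.052 with 38 members lower. The direction between the knockouts therefore rested on which libraries were used.

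Short transcripts other than members were lower too. Most member transcripts are short, with a median of 761 bases for those matched to the GENCODE M21 annotation. In S1pr1_KO against WT, genes outside the set with an average log2 CPM above 3 had a median log2 fold change of -0.54 under 600 bases (190 genes), -0.58 from 600 to 1000 bases (596 genes), -0.37 up to 2000 bases, -0.10 up to 4000 bases and 0.16 beyond. Members had medians of -0.89, -0.80 and -0.80 in the first 3 of these classes, with 25, 30 and 20 members. In C3_KO against WT the first 3 medians were -0.33, -0.41 and -0.24 for other genes and -0.61, -0.61 and -0.60 for members. In each of these 6 pairs the members were lower than other genes of their length.

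With per-library trends on GC content and transcript length as offsets in the edgeR fit, the median of the members was -0.29 in C3_KO against WT, with 79 of 82 lower, and -0.44 in S1pr1_KO against WT, with 76 lower. No member was called in that fit. Rplp0 was then at 0.13 and Rpl29 at 0.37 in S1pr1_KO against WT, above 0 where the fit without offsets had them at -0.19 and -0.03, and neither passed.

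Other parts of the translation machinery lay in the same direction by smaller amounts. The 18 translation factors were all lower in both comparisons with WT, with medians of -0.35 in C3_KO and -0.58 in S1pr1_KO. Eef1b2, the exchange factor of elongation factor 1, had 745 ± 91.2 CPM in WT, 506 ± 136 CPM in C3_KO and 393 ± 124 CPM in S1pr1_KO (SD, n = 4), with a log2 fold change of -0.92 in S1pr1_KO that did not pass (edgeR adjusted p = 0.228). Of 24 ribosome biogenesis genes, 21 were lower in C3_KO (median -0.29) and 23 in S1pr1_KO (median -0.53). Polr1c, a subunit shared by RNA polymerases I and III, fitted at -0.58 in C3_KO, with 49.5 ± 11.2 CPM for WT tumours and 33.1 ± 6.25 CPM for C3_KO tumours (SD, n = 4). Nip7, a factor of 60S assembly, was at -0.85 in S1pr1_KO. Of 13 hosts of small nucleolar RNAs, 9 and 11 were lower, with medians of -0.20 and -0.38 and with Snhg8 at -0.59 and -0.81. The 7 ribosomal proteins with names outside the rule, among them Rack1 and Rps3a1, were all lower, with medians of -0.46 and -0.78. No gene of these lists passed the adjusted p in either comparison. Without S1pr1_KO replicate 3, 5 of 18 translation factors, 2 of 24 biogenesis genes and 4 of the 7 other ribosomal proteins passed in S1pr1_KO against WT (edgeR). No host of small nucleolar RNAs passed there, and 1330 of all 31286 genes did.

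Genes that build complexes outside the cytosolic ribosome were also lower. Of 78 mitochondrial ribosomal protein genes, 77 were lower in C3_KO with a median of -0.48 and 78 in S1pr1_KO with a median of -0.65. Mrpl38 was at 130 ± 38.2 CPM in WT, 58.7 ± 15.2 CPM in C3_KO and 56.6 ± 24.2 CPM in S1pr1_KO (SD, n = 4). Of 39 proteasome genes, 34 and 37 were lower, with medians of -0.38 and -0.50 and with Psmb6, a catalytic subunit of the core particle, at -0.80 and -0.89. Without S1pr1_KO replicate 3, 19 of 78 mitochondrial ribosomal and 6 of 39 proteasome genes passed in S1pr1_KO against WT (edgeR). Of all 31286 genes, 1330 passed there. With the GC and length offsets the 2 medians of that comparison were -0.29 and -0.25. Members were 14.6 to 22.2 times the summed mitochondrial ribosomal counts in a library, with 19.4 to 21.1 in WT, 16.3 to 21.2 in C3_KO and 14.6 to 22.2 in S1pr1_KO. The 5 lowest of these ratios came from the 5 libraries with the lowest share of members, so in those libraries the cytosolic set was lower by more than the mitochondrial set.

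**Figure D3:**
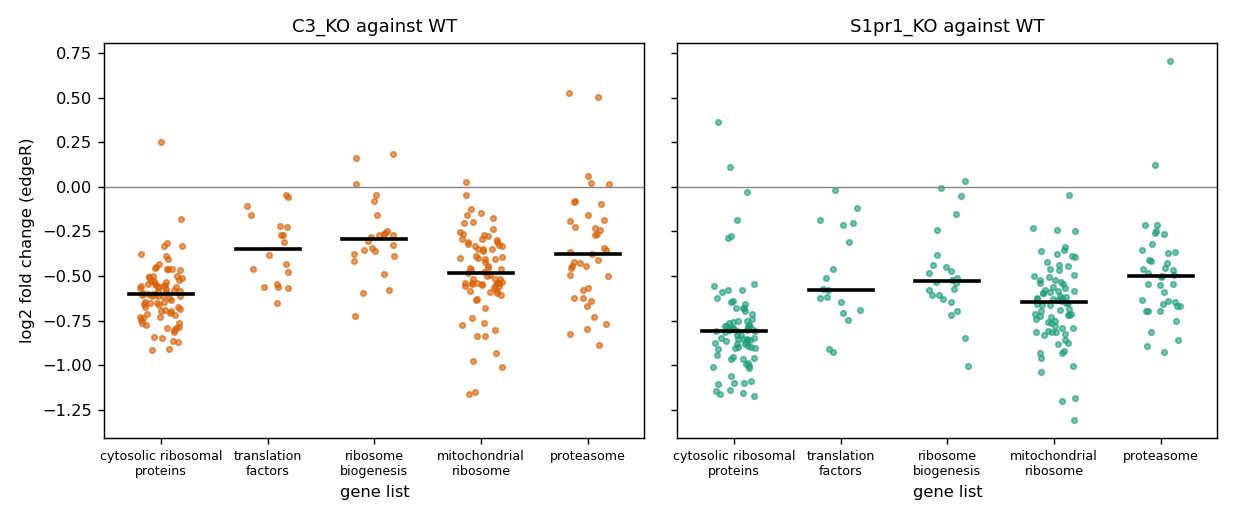
edgeR log2 fold change of each gene (points) and the median (black bar) for 5 gene lists, in C3_KO against WT (left) and S1pr1_KO against WT (right). Cytosolic ribosomal proteins have the lowest medians, -0.60 and -0.81, and the other lists have medians of -0.48 to -0.29 and -0.65 to -0.50.

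Regulators of these genes had medians closer to 0. Of 19 genes of mTORC1 signalling and of transcription factors at ribosomal protein promoters, 12 were lower in C3_KO and 14 in S1pr1_KO, with medians of -0.11 and -0.15, beside 45.8 and 48.3% lower over all genes tested. Mtor itself was at 36.7 ± 8.74 CPM in WT, 47.4 ± 8.53 CPM in C3_KO and 49.7 ± 7.30 CPM in S1pr1_KO (SD, n = 4), log2 fold changes of 0.37 and 0.44 that did not pass (edgeR adjusted p = 0.765 and 0.344). Of 12 cell cycle genes, 9 and 12 were lower, with medians of -0.34 and -0.41 and with Birc5, a mitotic survivin, at -1.15 and -1.60, neither of which passed.

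Markers of other cell types also differed in median level, though none passed the adjusted p with all libraries (edgeR). In S1pr1_KO against WT all 10 B cell markers were higher, with a median log2 fold change of 3.98, and so were all 10 adipocyte markers, with 2.70. Replicates 1 and 2 carried both: the mean log2 CPM of the B cell markers was 4.17, 3.11, -1.81 and -1.06 in S1pr1_KO replicates 1 to 4 and -1.49 to -0.27 in WT, and that of the adipocyte markers was 6.11, 6.08, 0.76 and 2.80 against -0.54 to 3.94. Of 10 luminal epithelial markers, 9 were lower, with a median of -0.44. In C3_KO against WT the medians of the B cell, adipocyte and luminal markers were 0.47, 1.28 and -0.033. All 8 keratinocyte markers were higher in C3_KO, with a median of 3.14 and mean log2 CPM of 0.73, 0.37, 5.62 and 3.09 by replicate against -1.06 to 1.37 in WT, and 6 of 8 were higher in S1pr1_KO (median 0.68). Of 8 endothelial markers, 7 were higher in each comparison with WT (medians 0.58 and 0.85). In S1pr1_KO against WT without replicate 3, 3 endothelial, 3 B cell, 1 fibroblast and 1 luminal marker passed (edgeR). No adipocyte, keratinocyte or skeletal muscle marker passed there, and 1330 of all 31286 genes did. Of 8 fibroblast markers, 6 were higher in C3_KO (median 0.47) and 8 in S1pr1_KO (median 0.51). Skeletal muscle markers were lower for 10 of 10 in C3_KO (median -0.69) and 9 of 10 in S1pr1_KO (median -1.02). Their mean log2 CPM by replicate was -0.43, 8.10, 2.09 and 2.02 in WT and -0.21, 7.06, 3.55 and 5.09 in C3_KO. In S1pr1_KO it was 7.15, -0.26, -2.16 and 2.16. WT replicate 2 was the highest of all, and C3_KO replicates 3 and 4 lay above WT replicates 1, 3 and 4. By tumour, the mean log2 CPM of the luminal markers was 8.03 to 8.94 in WT, 8.03 to 8.75 in C3_KO and 7.48 to 8.72 in S1pr1_KO, with the 3 lowest values in S1pr1_KO replicates 1, 2 and 4. The part of these cell types in the ribosomal values was not tested.

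Within the pool of ribosomal protein mRNAs, proportions varied mainly along 1 axis. Each of the 79 members whose 12 log2 CPM values had a mean of 1 or more was expressed as a share of the summed members of its library, which does not depend on scaling between libraries. The first principal component of the log2 shares held 51.6% of their variance. It placed S1pr1_KO replicate 3 (3.38), WT replicate 1 (2.51) and C3_KO replicate 2 (1.57) highest, which are the 3 libraries of strongest GC skew, 1 of each genotype. They were grouped here after their values were seen, and no test was made.

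In those 3 libraries 13 members had shares below all other 9 and 11 had shares above all other 9. How many of all genes tested were apart in this split was not counted, so these counts show no trait particular to the members. The largest differences of mean log2 share downward were those of Rpl7 and Rpl4 (both -1.02), Rpl5 (-0.99) and Rps24 (-0.83). Upward they were those of Rpl28 (0.59), Rplp2 (0.57), Rps14 (0.54) and Rpl14 (0.49). As a ratio of FPKM, Rpl4 to Rpl28 was 0.604, 0.529 and 0.351 in the 3 libraries and 0.986 to 1.99 in the other 9. The median GC content was 48.2% for the transcripts of the 13 and 52.5% for those of the 11, and across 77 members the loading on this component correlated with GC content at r = 0.55 (rho 0.56), a description over genes that share all their libraries. The correlation with transcript length was -0.19. Promoter windows of Rpl28, Rplp2, Rpl14 and Rps24 hold a TOP motif within 5 bases of the annotated start, and those of Rpl4 and Rpl5 hold none there. Runs of pyrimidines farther from that start, which the Rpl4 and Rpl5 windows do hold, were not counted. Of the other upward members with a promoter, Rps21 and Rpl18 had the motif, and Rps13, Rpl37a and Rps16 did not. Of the other downward members with a promoter, Rpl11, Rpl23 and Rpl10a did not have it.

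**Figure D4:**
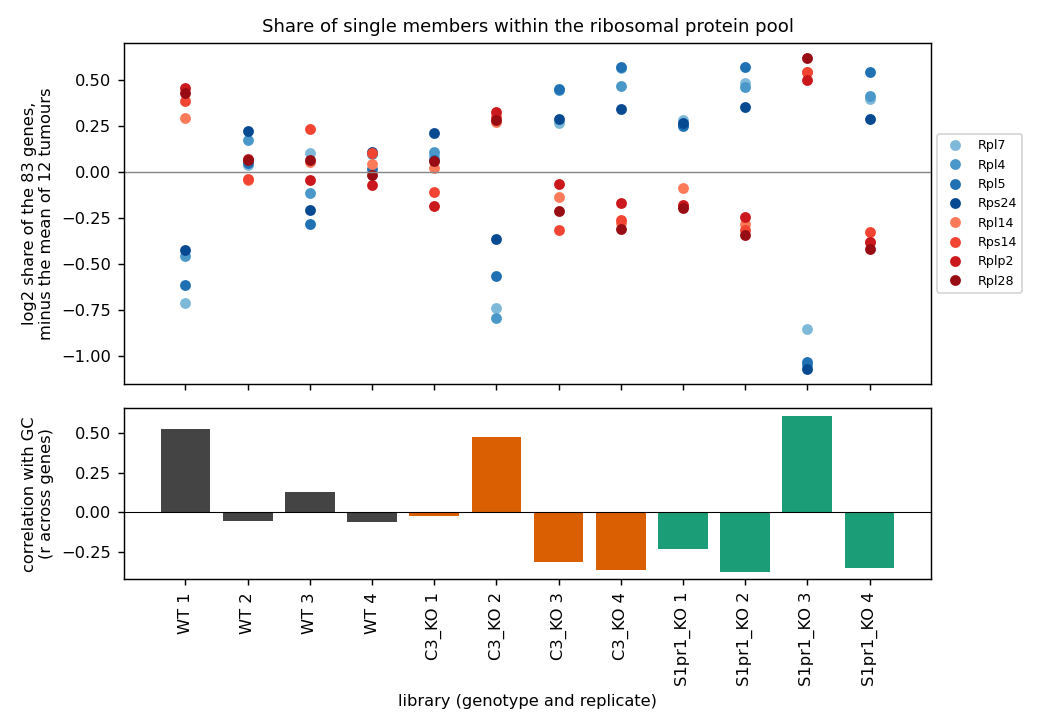
Top, log2 share within the summed ribosomal protein counts, minus the mean of 12 tumours, for the 4 members with the largest differences downward (blue) and upward (red) in WT replicate 1, C3_KO replicate 2 and S1pr1_KO replicate 3. Bottom, for each library, the correlation with GC content, across genes, of log2 CPM minus the gene's mean over all libraries. It is 0.52, 0.48 and 0.61 in these 3 and at most 0.13 in the others.

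Between genotypes the proportions were close. Of 79 members, 66 had a mean log2 share within 0.25 of WT in C3_KO and 64 in S1pr1_KO, and 69 differed by less than 0.25 between the knockouts. Among the most even members were Rps23 and Rpl6, with SDs over 12 tumours of 0.08 and 0.09 on the log2 scale of shares. The least even of the 79 were Rps4l (0.83), Rpl29 (0.76) and Rpl5 (0.53). Rpl3l, which is outside the 79 with a mean log2 CPM of -0.53 but has an edgeR average of 1.19, was less even still, with an SD of 2.39.

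A few shares were apart between genotypes without overlap. Rpl34, a 60S protein, made up 0.354, 0.349, 0.340 and 0.337% of member counts in WT, 0.633, 0.435, 0.374 and 0.377% in C3_KO, and 0.661, 0.630, 0.603 and 0.805% in S1pr1_KO. The WT tumours were nearly identical and every knockout tumour was above them, with differences of mean log2 share of 0.36 and 0.96. Rplp0 made up 2.02 ± 0.30% in WT and 3.05 ± 0.30% in S1pr1_KO (SD, n = 4), and all 4 S1pr1_KO tumours, at 2.68 to 3.41%, were above the WT range of 1.78 to 2.44%. Rpl29, a small basic 60S protein, made up 0.561 to 0.641% in WT and 0.797 to 1.22% in S1pr1_KO, also without overlap. Rps27a (-0.32) and Rpl35 (-0.21) had lower log2 shares in S1pr1_KO than in WT without overlap. The separation of these last 2 was slight, at 1.496% in the highest S1pr1_KO tumour against 1.497% in the lowest WT tumour for Rps27a, and 0.922% against 0.924% for Rpl35. Of the 79 members, 3 were thus apart upward and 2 downward in S1pr1_KO against WT, where 10.7% and 0.616% of all genes tested were apart in their level relative to the summed members. Rpl34 was the 1 member apart in C3_KO against WT, where 9% of all genes were apart upward and 0.232% downward. In both comparisons with WT the summed members were themselves lower, which raises other genes relative to them. These percentages over all genes are therefore not a like background for the members. None was apart between the knockouts, against 0.453% of all genes upward and 0.329% downward. In level rather than share, Rpl34 and Rpl29 overlapped between S1pr1_KO and WT, at 193 to 542 CPM against 250 to 335 CPM for Rpl34.

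Rpl29 varied widely within both knockouts. Its levels were 677, 428, 78.7 and 148 CPM in C3_KO replicates 1 to 4 and 410 to 606 CPM in WT. In S1pr1_KO they were 411, 244, 1099 and 283 CPM. C3_KO replicate 1 was thus above all WT tumours and replicates 3 and 4 far below, and log2 fold changes of -0.65 in C3_KO and -0.03 in S1pr1_KO had SEs of 0.61 and 0.60 (edgeR adjusted p = 0.801 and 0.985).

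The tissue-restricted copies had their own patterns. Rpl3l, which replaces Rpl3 near the peptidyl transferase centre in striated muscle, was listed at 0.095, 7.58, 0.293 and 0.107 FPKM in WT, 0.110, 2.88, 0.410 and 0.809 FPKM in C3_KO, and 3.26, 0.111, 0.102 and 0.293 FPKM in S1pr1_KO. The 3 tumours above 1 FPKM, WT replicate 2, C3_KO replicate 2 and S1pr1_KO replicate 1, were 1 of each genotype and were the 3 highest in skeletal muscle markers, with mean log2 CPM over 10 markers of 8.10, 7.06 and 7.15 against -2.16 to 5.09 in the other 9. Acta1, the actin of skeletal muscle, was 374 to 750 CPM in these 3 tumours and at most 97.7 CPM in the others. Rpl3 itself ranged from 218 to 427 FPKM and was 368, 316 and 218 FPKM in those 3 tumours.

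**Figure D5:**
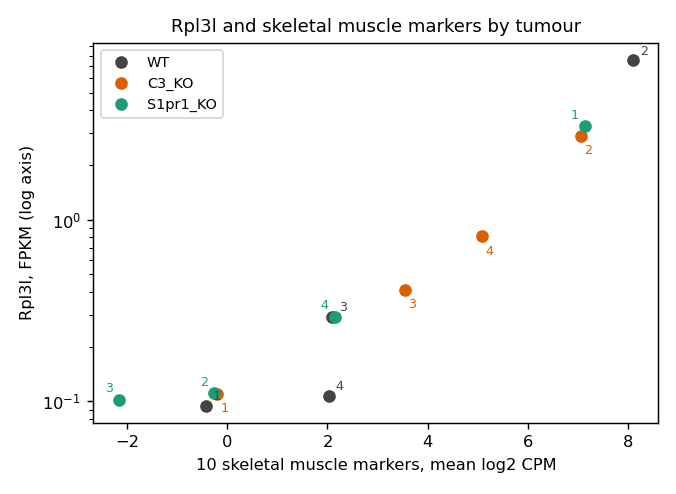
Rpl3l in FPKM (log axis) against the mean log2 CPM of 10 skeletal muscle markers in each of 12 tumours, coloured by genotype and numbered by replicate. WT replicate 2 is highest on both axes at 7.58 FPKM, followed by S1pr1_KO replicate 1 and C3_KO replicate 2.

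Copies known from the male germ line were at or near 0. Rpl10l had 4 counts in WT replicate 2 and 0 in the other 11 tumours, and it was not tested. Rpl39l was present at 0.314 to 1.06 FPKM in every tumour, against 131 to 350 FPKM for Rpl39, the protein of the exit tunnel that it resembles. Of 8 germ cell markers only 4 had enough counts to be tested. Sycp3 of that list was at 4.01 to 18.2 CPM in every tumour, while the others were at most 0.219 CPM (Ddx4). Rps27l, a p53 target related to Rps27, was by contrast well expressed, at 112 to 281 FPKM, and amounted to at most 0.627 times the FPKM of Rps27 in any tumour. Rps4l stood at 0.842 to 3.26 FPKM against 438 to 846 FPKM for Rps4x. Ribosomal protein genes have many processed pseudogenes, of which 321 rows with such names took 0.346 to 0.919% of counts in a library, so reads of a member and its copies cannot be fully told apart.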

How the data were processed

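The authors deposited 1 table of raw counts and 1 table of FPKM values for 12 tumour libraries. Of 682320 deposited FPKM values, 682317 equalled the count scaled by gene length and column total within a relative tolerance of 0.0001. Per the submitters' processing notes, StringTie and build GRCm39 (mm39) were used; for aligner, counting program and strand the entry is: not given in the sources used here. Per the labels, RNA was kept in RNAlater and extracted with QIAzol.

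Genotypes came from the labels, and replicates were numbered in accession order. Counts were tested with edgeR 4.0.16 (R 4.3.3): low counts filtered with edgeR's default, 30660 genes kept, TMM scaling, robust quasi-likelihood F-test over all 12 libraries with 9 residual degrees of freedom, Benjamini-Hochberg adjustment over all genes tested, called under 0.05. Each SE is the fold change divided by the square root of F. Log2 CPM used a prior count of 2. Alternatives were DESeq2 1.42.0, limma 3.58.1 and others given below. On simulated counts of 30660 genes with 100 genes changed 2-fold and 100 changed 4-fold in S1pr1_KO against WT, 3 and 53 were called, with 2 false calls; in C3_KO against WT 4 and 39 were called.

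The members and lists were chosen with earlier results of these data known. Genes named are a preset set of stalk, 5S particle and divergent members, the members of smallest p or highest fold change in each comparison, those of extreme FPKM and of extreme spread of share; members of strongest GC-linked share and those with shares apart were named after their values were seen. Transcript length and GC content came from GENCODE M21 (GRCm38), used by symbol for 16919 genes and 79 members, and no coordinates were converted. Some members that the naming rule picks are not reported here.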

Additional observations from a re-analysis of the deposited data

Results flagged for a closer look

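Libraries far from the others of their genotype were looked for in groups of 4 by the gap to the nearest library divided by the range, in 126 group values, against Dixon's 95% critical value; chance flags about 1 in 20. The summed member share of S1pr1_KO replicate 3, 8.07% against 3.94 to 3.99% in the other 3, had a gap ratio of 0.988. In the same library Rplp0 (3067 CPM, ratio 0.883), Rplp2 (1229 CPM, 0.866), Rpl3 (1220 CPM, 0.887) and Rpl32l (2.88 CPM, 0.869) stood above the other S1pr1_KO tumours. This library also had the highest GC correlation, 0.61. Rpl3l was far above its group in WT replicate 2 (12.3 CPM, 0.972) and in S1pr1_KO replicate 1 (6.07 CPM, 0.954), the tumours with the highest muscle markers of their groups. Rpsa (2060 CPM, 0.917) and Rpl6l (130 CPM, 0.901) were low in WT replicate 2 against 2563 to 2609 CPM and 166 to 170 CPM in the other WT tumours. The part of GC skew or muscle RNA in these values was not tested.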

How the results depend on the processing

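No paired analysis was possible because the labels give no replicate numbers, and replicates were numbered in accession order.

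Genes called went from 0 to 82 (DESeq2), 5 (limma-voom) and 1 (limma on log2(FPKM + 1)) in C3_KO against WT, and to 106 (DESeq2) in S1pr1_KO against C3_KO. In S1pr1_KO against WT they went from 0 to 27 with library totals only, 10 with no filter, 23 with CPM above 1 in 4 libraries, 930 with DESeq2, 7828 with limma-voom, 33 and 43 with limma on log2(FPKM + 1) and log2(FPKM + 0.1), 68 with the 2 genotypes alone and 20 without the 3 libraries of strongest GC skew. Members called there were 0, but 9 with DESeq2 and 77 with limma-voom, whose median was -1.27. Leaving out 1 replicate gave 0 to 8, 0 to 1330 and 0 to 3 genes called in C3_KO against WT, S1pr1_KO against WT and S1pr1_KO against C3_KO, 0 to 57 members in S1pr1_KO against WT, and medians of -0.78 to -0.44, -1.21 to -0.66 and -0.63 to -0.017. In S1pr1_KO against C3_KO it left 45 to 79 members lower; leaving out the 3 libraries with most milk or saliva RNA, 38 were lower and the median was 0.052. The GC and length offsets and the set without GC-skewed libraries were chosen after seeing the data. With the median of the members as denominator, 7 shares instead of 5 were apart in at least 1 comparison with WT.

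No value of a single member that changed sign passed (lowest adjusted p 0.368), though Rplp0 (-0.68, adjusted p 0.0307) and Rpl30 (-0.47, adjusted p 0.0465) passed limma-voom in S1pr1_KO against WT without a change of sign. In S1pr1_KO against WT, Rpl29 (-0.03) was 0.010 with DESeq2 and with its size factors, 0.049 with totals only, 0.018 with no filter, 0.025 with the CPM filter, 0.43 without the milk and salivary libraries, 0.37 with the offsets and -0.69 to 0.20 leaving out 1 replicate. Rpl34 was -0.28 with limma-voom, -0.15 without GC-skewed libraries and -0.20 to 0.29 leaving out 1 replicate. Rplp0 was 0.24 without the milk and salivary libraries and 0.13 with the offsets, Rpl30 was 0.23 and Rpl39l 0.11 with the offsets, and Rpl39l was -0.88 to 0.019 and Rpl3l -3.67 to 2.51 leaving out 1 replicate. In C3_KO against WT, Rpl3l was 0.57 with limma-voom, 0.31 with log2(FPKM + 0.1) and -2.33 to 2.603 leaving out 1 replicate; Rpl34 was 0.17 and Rpl30 0.075 with the offsets; leaving out 1 replicate Rpl34 was -0.49 to 0.039 and Rps4l -0.024 to 0.45. The cause of these changes was not tested. At these depths the spread between tumours, not counting error, limits the comparisons.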
